A study of Mus musculus with 2 samples.

Results

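Genes of the unfolded protein response and the integrated stress response were examined in untransformed mouse myeloid progenitors. The 34 genes were taken from a list by exact match of the symbol, and all 34 were found among 23988 genes of the deposited table. Bone marrow of C57BL/6 mice was stripped of lineage-positive cells and kept for 7 days with IL3, SCF and IL6. SCF is stem cell factor, and all 3 are growth factors of early blood cells. RNA of these cultures was sequenced in 2 libraries, replicate 1 and replicate 2, which form 1 group with the same strain, culture and time and no treatment. By its title the series is about HOXA9 and MEIS1 leukaemia, and no leukaemic sample was analysed here. No age or number of animals is given in the labels, nor whether the libraries came from separate cultures, so the spread between them may be technical. Paired values are given for replicate 1 and replicate 2 in that order, and every ratio between libraries is replicate 1 over replicate 2.

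Proteins bound for secretion, membranes and granules are folded in the endoplasmic reticulum (ER). When unfolded proteins build up there, the sensors IRE1, PERK and ATF6 raise the output of chaperones, oxidoreductases and degradation factors, through spliced XBP1, ATF4 and cleaved ATF6. PERK shares its substrate, the translation factor eIF2, with kinases that sense amino acid shortage, haem shortage and double-stranded RNA. Phosphorylated eIF2 lowers general translation but favours that of ATF4, and this shared branch is called the integrated stress response. Myeloid progenitors make large amounts of granule proteins, which pass through the ER.

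Known control elements of the response were searched for in promoter sequences. RefSeq windows from assembly GRCm38.p6 were available for 30 of the 34 genes, 2 of them by an older symbol, each with 250 bases before and 50 after the annotated start. The other 4 were Manf, Hyou1, Atf6 and Sec61a1. Both strands were searched for 4 motifs. The ER stress element (ERSE, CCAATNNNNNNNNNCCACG) and its variant ERSE-II (ATTGG and CCACG with 1 base between) are bound by ATF6 or XBP1 with the factor NF-Y. The unfolded protein response element (UPRE) was searched as TGACGTGG and the C/EBP-ATF response element (CARE), which ATF4 binds, as TGATGNAA. ERSE, ERSE-II and UPRE share the letters CCACG on either strand and so can overlap.

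The ERSE was present in the windows of 9 of the 30 genes (30%), against 0.119% of all 32851 windows and 0.137% of 27025 genes. Its bearers were the chaperone genes Hspa5, Hsp90b1, Calr, Canx, Dnajc3 and Creld2, the oxidoreductase genes Pdia6 and Ero1lb, and the degradation gene Syvn1. ERSE-II was found in Dnajb11 and Herpud1 (6.67% of the 30 genes), against 0.0365% of all windows and 0.0444% of all genes. CARE was found in Atf3, Trib3, Chac1 and Herpud1 (13.3% of the 30 genes), against 3.97% of all windows and 4.51% of all genes. UPRE was found in none of the 30 genes, in 0.676% of all windows and in 0.714% of all genes. Windows of 16 of the 30 genes held no match. A match is a stretch of letters, not a site shown to be bound. The genes were listed for this response and the motifs are its known elements, so the shares describe the list and test nothing.

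The 250 bases before the start are shown for 6 genes, 3 highly expressed chaperone genes with an ERSE and 3 genes of the eIF2 branch or of degradation with a CARE. They run 5′ to 3′ on the strand of the gene, and capitals mark the fixed letters of each match. The regions in GRCm38.p6 are chr2:34771840-34772089 (+ strand) for Hspa5, chr10:86705445-86705694 (- strand) for Hsp90b1, chr8:84846932-84847181 (- strand) for Calr, chr8:94386179-94386428 (+ strand) for Herpud1, chr1:191183334-191183583 (- strand) for Atf3 and chr2:119350992-119351241 (+ strand) for Chac1. The table of values was made on the build mm9, so these positions are not its coordinates.
Hspa5: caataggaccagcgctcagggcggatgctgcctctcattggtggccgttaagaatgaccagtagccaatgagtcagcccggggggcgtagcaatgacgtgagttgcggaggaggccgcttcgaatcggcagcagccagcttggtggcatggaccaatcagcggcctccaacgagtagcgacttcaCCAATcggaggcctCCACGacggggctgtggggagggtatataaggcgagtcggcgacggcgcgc
Hsp90b1: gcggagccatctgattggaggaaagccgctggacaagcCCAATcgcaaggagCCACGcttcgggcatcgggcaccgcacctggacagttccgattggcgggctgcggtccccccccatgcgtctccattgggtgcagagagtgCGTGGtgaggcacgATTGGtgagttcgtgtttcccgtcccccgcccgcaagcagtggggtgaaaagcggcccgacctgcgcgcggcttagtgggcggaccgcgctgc
Calr: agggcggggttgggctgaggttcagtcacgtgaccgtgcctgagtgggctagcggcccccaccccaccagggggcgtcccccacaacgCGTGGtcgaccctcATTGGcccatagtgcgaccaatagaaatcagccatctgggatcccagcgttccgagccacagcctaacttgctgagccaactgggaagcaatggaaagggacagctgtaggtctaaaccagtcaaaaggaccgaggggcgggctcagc
Herpud1: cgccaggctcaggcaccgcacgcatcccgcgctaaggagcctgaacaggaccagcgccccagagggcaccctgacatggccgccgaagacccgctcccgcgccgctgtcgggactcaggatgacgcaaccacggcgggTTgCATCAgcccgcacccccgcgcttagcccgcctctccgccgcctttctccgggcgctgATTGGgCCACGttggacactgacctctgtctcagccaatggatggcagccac
Atf3: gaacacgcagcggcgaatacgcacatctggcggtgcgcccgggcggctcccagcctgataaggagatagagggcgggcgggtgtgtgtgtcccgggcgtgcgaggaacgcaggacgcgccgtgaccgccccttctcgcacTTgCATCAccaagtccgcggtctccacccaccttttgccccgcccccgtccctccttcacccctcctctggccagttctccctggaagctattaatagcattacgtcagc
Chac1: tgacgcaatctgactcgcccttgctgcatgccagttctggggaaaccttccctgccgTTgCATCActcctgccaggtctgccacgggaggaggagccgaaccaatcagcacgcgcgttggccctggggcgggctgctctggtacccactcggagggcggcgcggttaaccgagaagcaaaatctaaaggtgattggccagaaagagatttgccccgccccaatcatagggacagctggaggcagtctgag
Hsp90b1 carried ERSE matches on both strands. The Herpud1 window held a CARE from 112 to 105 bases before the start and an ERSE-II from 52 to 42 bases before it. The Atf3 and Herpud1 matches to CARE lay at about the same distance from the start, at -110 and -112. Chac1 had its match farther out, at -193.

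**Figure D1:**
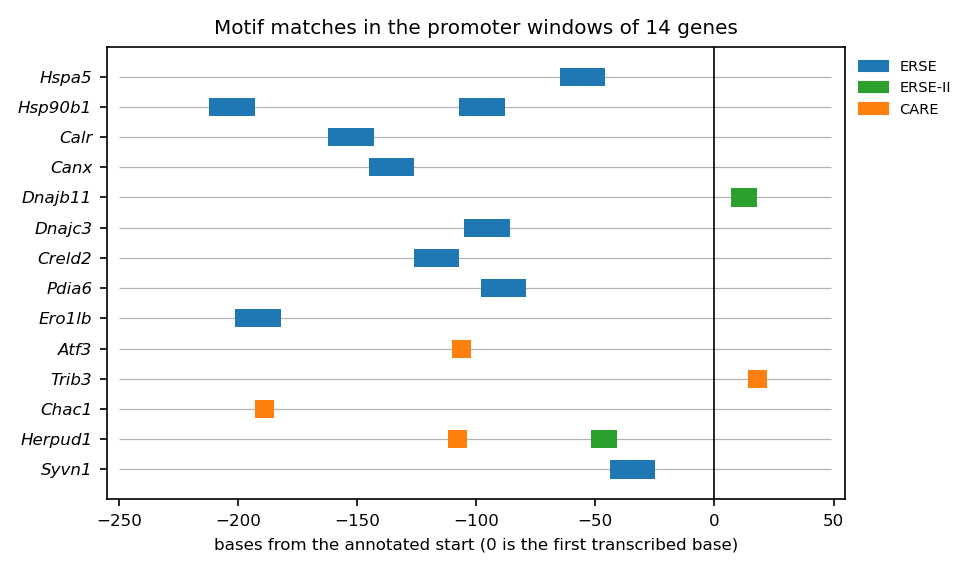
Positions of motif matches in the promoter windows of the 14 genes that held any, as bases from the annotated start (x axis), 1 gene per line, with ERSE in blue, ERSE-II in green and CARE in orange. The ERSE matches of 9 genes all lie before the start, between -212 and -26, while the matches in Dnajb11 and Trib3 lie after it.

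All 34 genes were expressed in both libraries, at levels that ranged from 3.28 to 881 RPKM (reads scaled to gene length and library size). Each reached 1 RPKM in both libraries, against 43.5% of all genes in the table. The median level of the 34 genes was 71.2 RPKM in replicate 1 and 68.5 in replicate 2. Over the 10896 genes whose mean reached 1 RPKM, the medians were 13.4 and 13.2 RPKM. By mean level 20 of the 34 genes stood at or above the 90th percentile of the 16777 genes above 0, and the lowest stood at the 51.9th. Together the genes held 0.803% of the summed RPKM in replicate 1 and 0.829% in replicate 2. Placed in order of mean level, 11 of the 33 neighbouring pairs differed in the same direction in both libraries by more than 2 SD on the log2(RPKM + 1) scale, and the other 22 did not.

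The libraries had effective sizes of 29941063 and 28793666 reads, read from the steps between RPKM values, sizes that may include a normalisation factor. The number of reads behind a value was recovered for 22 of the 34 genes in lowest terms, so true numbers are these or whole multiples of them. The least of these numbers in lowest terms was 53, for Ddit3. The labelled cell type was checked by marker lists. All 9 neutrophil granule genes were detected, led by S100a9 and S100a8, with 6 higher in replicate 1 and 3 lower. Camp, Ngp and Ltf were the lower ones, Camp by more than 1.5-fold at 1016 and 2115 RPKM. The log2 ratio (replicate 1 over replicate 2) of the 9 genes had a median of 0.29. This median was -1.65 over 7 monocyte and macrophage genes, -5.54 over 7 mast cell genes and -0.65 over 4 basophil genes. All members of these lists were lower in replicate 1. Of genes whose mean reached 1 RPKM, the 2 eosinophil ones, Epx and Prg2, were higher in replicate 1, with a median of 0.48. The 2 erythroid ones, Gata1 and Klf1, were lower, with a median of -0.38. Nkg7, the 1 such T and NK cell gene, was lower at -0.70. Of the stem and progenitor genes Cd34, Kit, Myb and Meis1 were detected and Flt3 was not, at 0.0904 and 1.11 RPKM. Plasma cells are rich in this response, and 3 of 9 B and plasma cell genes were detected, against 43.5% of all genes. All 3 were lower in replicate 1 by more than 1.5-fold, against 11.3% of all genes tested. Irf4 stood at 4.27 and 13.3 RPKM, Cd79b at 2.43 and 5.36 and Prdm1 at 1.19 and 2.37. Sdc1 stood at 0.121 and 1.22 RPKM, Mzb1 at 0 and 0.00462, Igj at 0.121 and 0.0504, and Ms4a1 at 0 in both. Their part in the results was not tested. In such bulk libraries fewer cells of a type and less RNA per cell cannot be told apart.

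The chaperones and co-chaperones of the ER spanned from the top of the set to its lower part, and all stayed within 1.5-fold between libraries. Calr (calreticulin, a lectin chaperone that binds sugar chains of new glycoproteins) was the highest, at 881 RPKM in replicate 1 and 692 in replicate 2. Hsp90b1, the ER member of the HSP90 family, stood at 704 and 679.8 RPKM, the 126th highest mean in the whole table. Hspa5, which encodes BiP, the chaperone that also holds the sensors inactive, stood at 298 and 293 RPKM. The amount of Hsp90b1 relative to Hspa5 was nearly equal in the libraries, 2.36 and 2.32 on the RPKM scale. Hyou1, a large ER chaperone that exchanges nucleotide on BiP, stood at 197 and 159 RPKM. Canx (calnexin, the membrane-bound relative of calreticulin) stood at 149.8 and 131 RPKM, so that Calr exceeded it 5.88-fold and 5.29-fold. These 5 genes ranked in the top 5% of genes above 0.

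Co-chaperones and small ER proteins covered a wider span. Dnajb11, a J protein that brings unfolded clients to BiP, stood at 127 and 99.6 RPKM. Manf, an ER-resident protein that can also be secreted as a survival factor, stood at 64.0 and 56.0 RPKM. Creld2, an ER stress-inducible protein with EGF-like domains, stood at 52.8 and 42.8 RPKM. Sdf2l1, a partner of ER J proteins, stood at 37.7 and 36.4 RPKM, and Dnajc3, a J protein and inhibitor of PERK, at 36.0 and 35.5. Dnajb9, a J protein that binds IRE1 and is a target of spliced XBP1, was the lowest at 18.9 and 12.95 RPKM. All 11 chaperone genes were higher in replicate 1, as were 6086 of the 10896 genes tested, whose median log2 ratio was 0.05. The ratios of the 11 genes lay between 0.02 and 0.51 with a median of 0.20. None was past 1.5-fold, against 4.26% of all genes higher and 11.3% lower. Dnajb9 had the largest of these ratios, with a linear ratio of 1.46 and a 95% interval from 1.31 to 1.63 that covers counting error only.

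Oxidoreductases, which form and reshuffle disulphide bonds, were higher still at the median but uneven. P4hb, the protein disulphide isomerase that is also a subunit of collagen prolyl hydroxylase, had 515 RPKM in replicate 1 and 879 in replicate 2. Pdia3, which works with calreticulin and calnexin, stood at 449 and 385 RPKM. Replicate 1 was thus the lower library for P4hb and the higher for Pdia3, and the P4hb level relative to Pdia3 was 1.15 and 2.28. Pdia6 stood at 223 and 219 RPKM and Pdia4 at 192 and 186, both isomerases of the same family. Ero1l, the oxidase that recharges these isomerases and is known to be induced by low oxygen, stood at 127 and 289 RPKM. Its relative Ero1lb was far lower at 5.33 and 6.42 RPKM. Ero1l exceeded Ero1lb 23.9-fold in replicate 1 and 45.0-fold in replicate 2. Oxidoreductase genes exceeded chaperone genes by 1.01 ± 0.44 (SD, n = 2) in median log2(RPKM + 1), which was over 2 SD. The difference was 0.51 with means in place of medians, then within 2 SD.

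**Figure D2:**
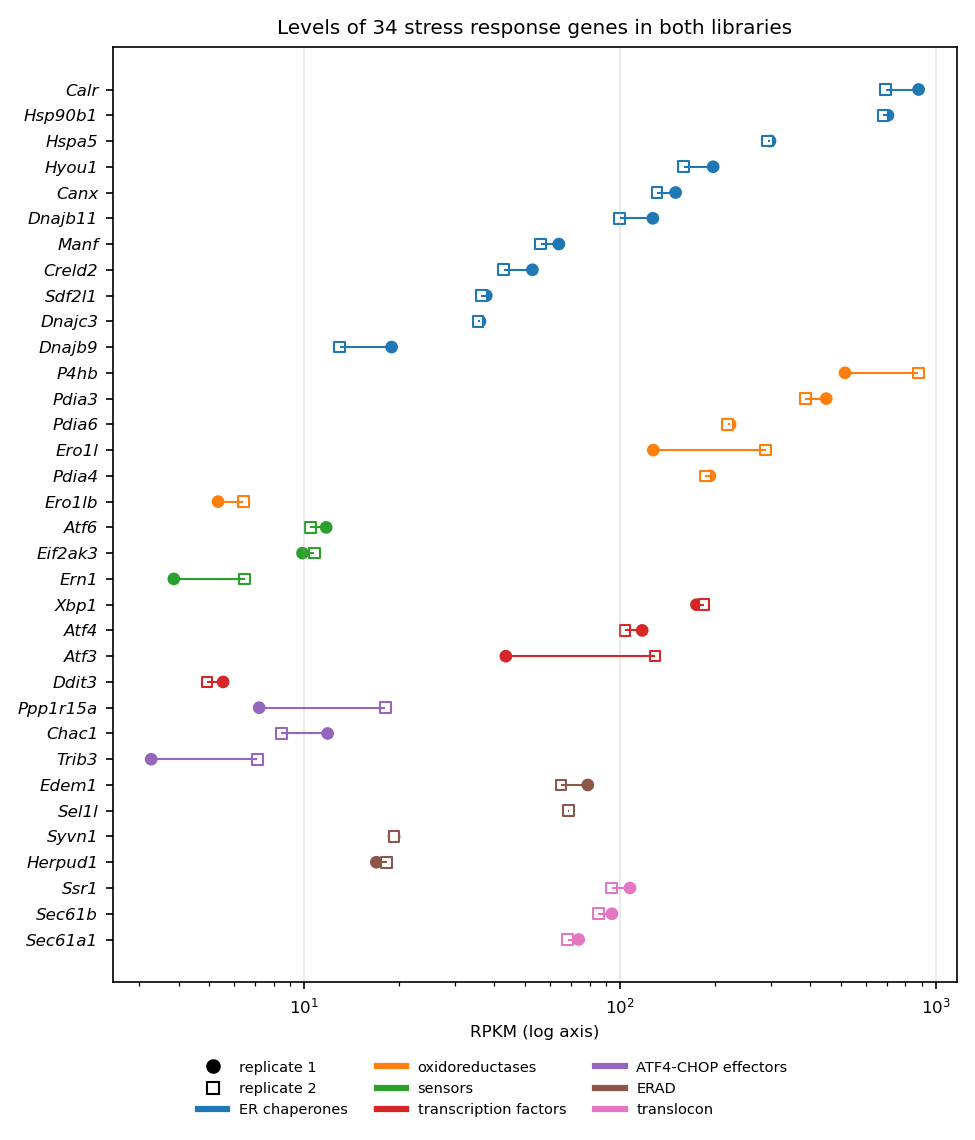
RPKM of each of the 34 genes on a log axis, with replicate 1 as filled circles, replicate 2 as open squares, a line between them and colours for the role. Chaperone, oxidoreductase and translocon genes lie mostly above 30 RPKM, the sensors and the ATF4-CHOP effectors below 20, and the longest lines belong to Atf3, Ppp1r15a, Ero1l and Trib3.

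The sensors were expressed at far lower levels than most transcription factor genes of the set. Atf6, the membrane-bound factor that is cut in the Golgi, had 11.7 RPKM in replicate 1 and 10.5 in replicate 2. Eif2ak3, which encodes PERK, stood at 9.87 and 10.8 RPKM. Ern1, which encodes the kinase and endonuclease IRE1 alpha, was the lowest at 3.86 and 6.48 RPKM. The libraries lay close for Atf6 and Eif2ak3, while Ern1 had a ratio of 0.596 of replicate 1 over replicate 2 (95% interval for counting error from 0.504 to 0.705). Sensors lay below the transcription factor genes by a median difference of -3.04 ± 0.43 (SD, n = 2) on the log2(RPKM + 1) scale, over 2 SD.

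Among the transcription factors Xbp1 and Atf4 were high in both libraries, Ddit3 was low and Atf3 differed. Xbp1, whose RNA is spliced by IRE1 to give the active factor, stood at 174 and 184 RPKM. These gene-level values hold both splice forms and do not show how much was spliced. Atf4, the main effector of phosphorylated eIF2 and controlled largely at translation, stood at 117 and 104 RPKM. Ddit3 (CHOP, a pro-death factor downstream of ATF4) was near the bottom of the set at 5.54 and 4.92 RPKM. Relative to Atf4 its level was 0.0471 in replicate 1 and 0.0474 in replicate 2. Atf3, a factor induced by ATF4 and by many other stimuli, had 43.5 RPKM in replicate 1 and 129 in replicate 2. This was the ratio farthest from 1 of all 34 genes, a value of 0.337 with a counting interval from 0.306 to 0.371. Atf3 stood below Atf4 in replicate 1, at 0.370 of its level, and above it in replicate 2, at 1.24.

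The effectors downstream of ATF4 and CHOP were low and did not move alike between libraries. Ppp1r15a (GADD34, which directs a phosphatase to eIF2 and so ends the response) had 7.199 RPKM in replicate 1 and 18.0 in replicate 2. Trib3, a pseudokinase that restrains ATF4 and AKT, stood at 3.28 and 7.11 RPKM. Both were lower in replicate 1, with ratios of 0.399 (counting interval 0.360 to 0.441) and 0.461 (0.408 to 0.520). Chac1, an enzyme that breaks down glutathione, went the other way at 11.9 and 8.46 RPKM, with a ratio of 1.40 and a counting interval from 1.23 to 1.60. For Ddit3 the interval, from 0.767 to 1.66, included equality, but it rests on read numbers in lowest terms and may be too wide. Effector genes lay below the transcription factor genes by -3.39 ± 0.34 (SD, n = 2) in median log2(RPKM + 1), over 2 SD.

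Genes of ER-associated degradation, which returns misfolded proteins to the cytosol for the proteasome, held close between libraries. Edem1, a lectin-like protein that picks misfolded glycoproteins, had 79.0 RPKM in replicate 1 and 65.1 in replicate 2. Sel1l, the adaptor of the main ubiquitin ligase, stood at 68.5 and 68.7 RPKM. Syvn1, which encodes that ligase (HRD1), stood at 19.2 RPKM in both. Herpud1, a stress-induced scaffold of the ligase complex, stood at 16.9 and 18.2 RPKM. The group lay below the chaperones by -1.62 ± 0.22 (SD, n = 2) in median log2(RPKM + 1), over 2 SD.

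Translocon genes, whose products carry new chains into the ER, were evenly expressed. Ssr1, a subunit of the translocon-associated complex, stood at 107 and 94.0 RPKM. Sec61b and Sec61a1, subunits of the channel itself, stood at 94.2 and 85.4 RPKM and at 74.0 and 68.2 RPKM. The level of Sec61b relative to Sec61a1 was 1.27 in replicate 1 and 1.251 in replicate 2. This group was -0.32 ± 0.15 (SD, n = 2) below the chaperones in median log2(RPKM + 1), over 2 SD.

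Between the libraries the set as a whole was centred where all genes were, with a tail of 6 genes lower in replicate 1. The log2 ratio of RPKM + 1 (replicate 1 over replicate 2) had a median of 0.05 over the 34 genes and 0.05 over the 10896 genes tested. Of the 34 genes 23 were higher in replicate 1 and 11 lower, against 6086 and 4810 of the 10896 genes tested. Above the median ratio of all genes tested stood 18 of the 34. Atf3, Ppp1r15a, Ero1l, Trib3, P4hb and Ern1 were lower in replicate 1 by more than 1.5-fold, which is 6 of 34 or 17.6%, against 11.3% of all genes tested. At 1.3-fold, a setting chosen after seeing the data, the count was again 6, or 17.6%, against 17.5% of all genes. None was higher in replicate 1 by more than 1.5-fold, against 4.26% of all genes. Both shares are read as a description, since each side is 1 library and no test can be made. An exact permutation test of 1 library against 1 cannot go below p = 1.

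**Figure D3:**
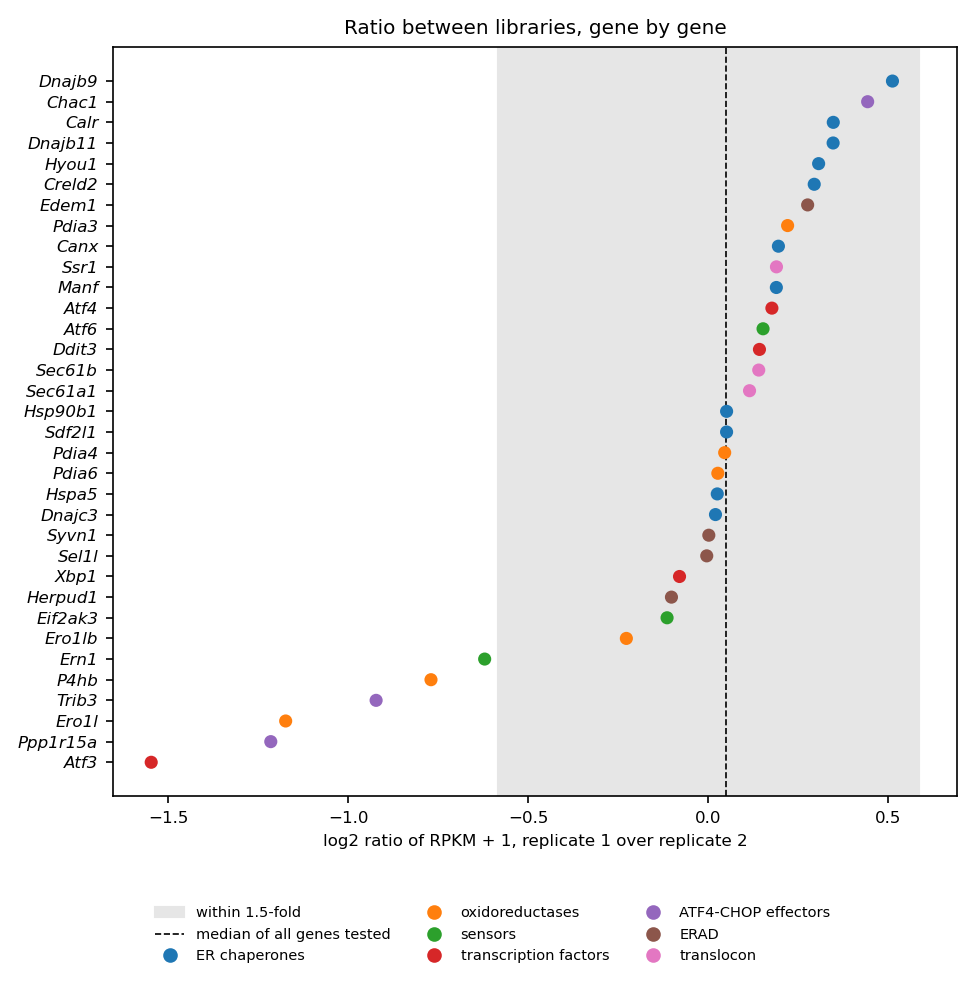
Log2 ratio of RPKM + 1, replicate 1 over replicate 2 (x axis), for each of the 34 genes in order, coloured by role, with the band within 1.5-fold in grey and the median of all genes tested as a dashed line. The 6 genes left of the band run from Ern1 at -0.62 to Atf3 at -1.55, and no gene lies right of it.

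**Figure D4:**
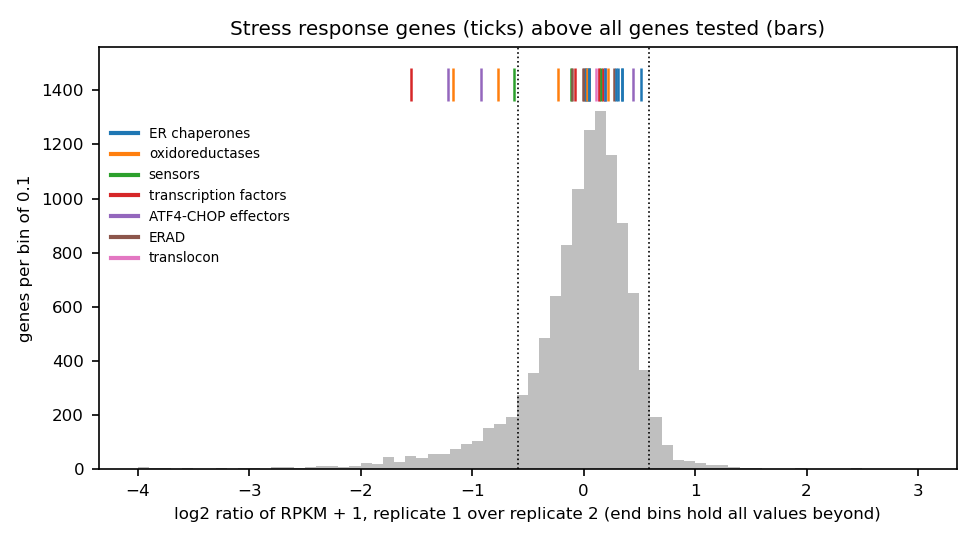
Number of genes per bin of log2 ratio of RPKM + 1, replicate 1 over replicate 2, for all 10896 genes tested (bars), with the 34 stress response genes as ticks coloured by role and dotted lines at 1.5-fold. Most ticks stand over the centre of the bars, and 6 stand over their left tail, which holds 11.3% of genes.

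The genes past 1.5-fold came from several branches. The log2 ratio was -1.55 for Atf3, -1.22 for Ppp1r15a, -1.17 for Ero1l, -0.92 for Trib3, -0.77 for P4hb and -0.62 for Ern1. Over the 6 genes of the eIF2 branch (Atf3, Atf4, Ddit3, Trib3, Ppp1r15a and Chac1) the median was -0.39, with 3 genes higher and 3 lower in replicate 1. Over the 17 chaperone and oxidoreductase genes it was 0.05, with 14 higher, where 6086 of the 10896 genes tested were higher. The difference of these medians was -0.44. Within the eIF2 branch Atf4, Ddit3 and Chac1 had positive ratios of 0.18, 0.14 and 0.44.

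Ratios were also read by promoter motif. The 9 genes with an ERSE had log2 ratios between -0.23 and 0.35 with a median of 0.03. None was past 1.5-fold, against 4.26% of all genes higher and 11.3% lower. Their median levels were 149.8 RPKM in replicate 1 and 131 in replicate 2. The 4 genes with a CARE ranged from -1.55 for Atf3 through -0.92 for Trib3 and -0.10 for Herpud1 to 0.44 for Chac1. Outside the set 245 genes with a CARE reached a mean of 1 RPKM, and their median ratio was 0.03. Past 1.5-fold 11 of the 245 were higher in replicate 1 and 41 lower. Over all 10896 genes tested 464 were higher (4.26%) and 1234 lower (11.3%). Of the genes outside the set with an ERSE 21 were in the table and 4 of them reached a mean of 1 RPKM, Alg12, Hnrnpa3, Pan2 and Zfp57. Zfp57 was past 1.5-fold, lower in replicate 1 at 3.32 and 6.20 RPKM. Ero1l, P4hb, Ern1 and Ppp1r15a held none of the 4 motifs in their windows.

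Other gene sets moved in the same direction as this tail. A list of glycolysis and hypoxia genes, chosen after the values were seen, had 21 members with values. All 21 were lower in replicate 1, 19 of them (90.5%) by more than 1.5-fold against 11.3% of all genes, with a median log2 ratio of -1.63. Pgk1 stood at 599 and 1854 RPKM, and P4ha1, the partner of P4hb in collagen prolyl hydroxylase, at 8.41 and 35.5 RPKM. A list of 18 immediate early genes, chosen likewise, had 17 whose mean reached 1 RPKM. All 17 were lower in replicate 1, 16 of them (94.1%) by more than 1.5-fold against 11.3% of all genes, with a median of -1.70. Egr1 stood at 7.06 and 106 RPKM and Fos at 18.0 and 91.0 RPKM. Both lists were chosen after the values were seen, so these shares describe the lists and test nothing. Monocyte and mast cell markers were lower in replicate 1 too, as given above. Vegfa is on both the hypoxia list and the ATF4 target list described next. The part of any of these in the values of Atf3, Ppp1r15a, Ero1l, P4hb, Trib3 and Ern1 was not tested.

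The rest of the machinery around eIF2 was expressed throughout, and the second eIF2 phosphatase subunit was much higher than the induced one. All 15 genes of this list were detected, with medians of 26.9 RPKM in replicate 1 and 21.4 in replicate 2. Ppp1r15b, the constitutive counterpart of Ppp1r15a, stood at 369.7 and 377 RPKM, so that Ppp1r15a had 0.0195 and 0.0478 of its level. The eIF2 subunit genes Eif2s3x and Eif2s2 followed at 118 and 100.01 RPKM and at 109.7 and 79.0 RPKM. Of the other eIF2 kinases Eif2ak1, which senses haem, stood at 23.7 and 21.4 RPKM. Eif2ak2, activated by double-stranded RNA, stood at 7.68 and 6.503 RPKM, and Eif2ak4 (GCN2, which senses amino acid shortage) at 6.5996 and 6.6045. Eif2b3, a subunit of the exchange factor for eIF2, alone was past 1.5-fold, with a log2 ratio of 0.60. This is 6.67% of the 15 genes, against 4.26% of all genes tested higher in replicate 1. Gcn1l1 had the lowest ratio at -0.21.

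Known ATF4 targets of the amino acid response split in both directions. Of 32 listed genes 26 were detected, and 27 had a mean reaching 1 RPKM, with a median log2 ratio of 0.19. The mean of the same ratios was -0.10, of the opposite sign. Past 1.5-fold 5 were higher in replicate 1, namely Phgdh, Psph, Psat1, Shmt2 and Mthfd2, all enzymes of serine and one-carbon metabolism, which is 18.5% of the 27 against 4.26% of all genes tested. Another 6 were lower in replicate 1, Vldlr, Stc2, Vegfa, Cth, Pycr1 and Ddit4, which is 22.2% against 11.3% of all genes. Phgdh, the first enzyme of serine synthesis, had the highest ratio at 1.23, with 164 and 69.4 RPKM. Vldlr, a lipoprotein receptor, had the lowest at -3.55, with 1.52 and 28.5 RPKM. Cebpb, a bZIP factor, had the highest level at 139 and 169 RPKM, and the amino acid transporter gene Slc7a5 stood at 84.7 and 82.7 RPKM. Asns (asparagine synthetase, a textbook ATF4 target) stood at 54.6 and 38.1 RPKM. CARE was present in 8 of the 28 genes with a window, against 4.51% of all 27025 genes with one. The 8 were Asns, Slc7a11, Slc1a4, Vldlr, Pycr1, Nupr1, Fgf21 and Jdp2. The list holds known targets of ATF4, which binds CARE, so this share describes the list and tests nothing.

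The aminoacyl tRNA synthetase genes, several of which ATF4 induces, all leaned to replicate 1. Each of the 20 genes was detected and each was higher in replicate 1, with a median log2 ratio of 0.46, against 0.05 over all genes tested. Past 1.5-fold were 4, Aars, Lars, Farsb and Tars, or 20% of the list against 4.26% of all genes. Qars was the highest at 268 and 253 RPKM with the smallest ratio, 0.08, followed by Kars at 218 and 155 and Iars at 157 and 122. Aars, the alanine enzyme, had the largest ratio, 0.69, at 47.3 and 28.9 RPKM. Of 13 genes with a promoter window 5 held a CARE, Aars, Gars, Iars, Tars and Yars, against 4.51% of all 27025 genes. This share too describes the list and tests nothing.

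Lists of further ER machinery stayed near the centre of all genes. The list of other degradation and quality control genes had 25 members with values, of which 24 were detected. Their medians were 27.5 and 22.9 RPKM, and none was past 1.5-fold, against 4.26% of all genes tested higher and 11.3% lower. Aup1, which recruits a ubiquitin enzyme at the ER, led with 263 and 196 RPKM and had the largest ratio at 0.42, while Ngly1 had the lowest at -0.32. Os9, a lectin of this pathway, stood at 101 and 118 RPKM and Selk at 79.0 and 88.7. Derl3, a degradation factor that held the only ERSE of this list, was below detection at 0.238 and 0.214 RPKM. All 24 genes of the wider translocon, signal peptidase and oligosaccharyltransferase list were detected, with medians of 85.0 and 78.4 RPKM. Rpn1 and Rpn2, subunits of the sugar transferase, stood at 983 and 827 RPKM and at 531 and 509 RPKM. Spcs3 of the signal peptidase stood at 336 and 321 RPKM. Tusc3 alone was past 1.5-fold, lower in replicate 1 at 10.7 and 22.4 RPKM, which is 4.17% of the 24 against 11.3% of all genes. Dad1 had the highest ratio at 0.33.

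Among 34 other folding enzymes 31 were detected, with medians of 31.5 and 30.3 RPKM. Mlec (malectin, a sugar-binding ER protein) stood at 1408 and 1266 RPKM, Erp29 at 258 and 325, and Serp1 at 173 and 186. Prdx4, an ER peroxiredoxin, was the exception past 1.5-fold at 6.88 and 21.1 RPKM, a log2 ratio of -1.48. This is 3.1% of the 32 genes whose mean reached 1 RPKM, against 11.3% of all genes lower in replicate 1. Mcfd2 had the highest ratio of the list at 0.37. Of 19 genes for ATF6 and CREB3 factors, their proteases and partners 16 were detected. Tmbim6, an ER membrane protein that restrains IRE1, stood at 372 and 368 RPKM, Rtcb, the ligase that joins spliced Xbp1 RNA, at 72.8 and 65.7, and Gtf2i at 43.1 and 61.5. Creb3l1 and Wfs1 were past 1.5-fold, with ratios of -0.90 and -0.65, and Traf2 had the highest ratio at 0.30. These 2 genes are 12.5% of the 16 on the list, near the 11.3% of all genes.

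**Figure D5:**
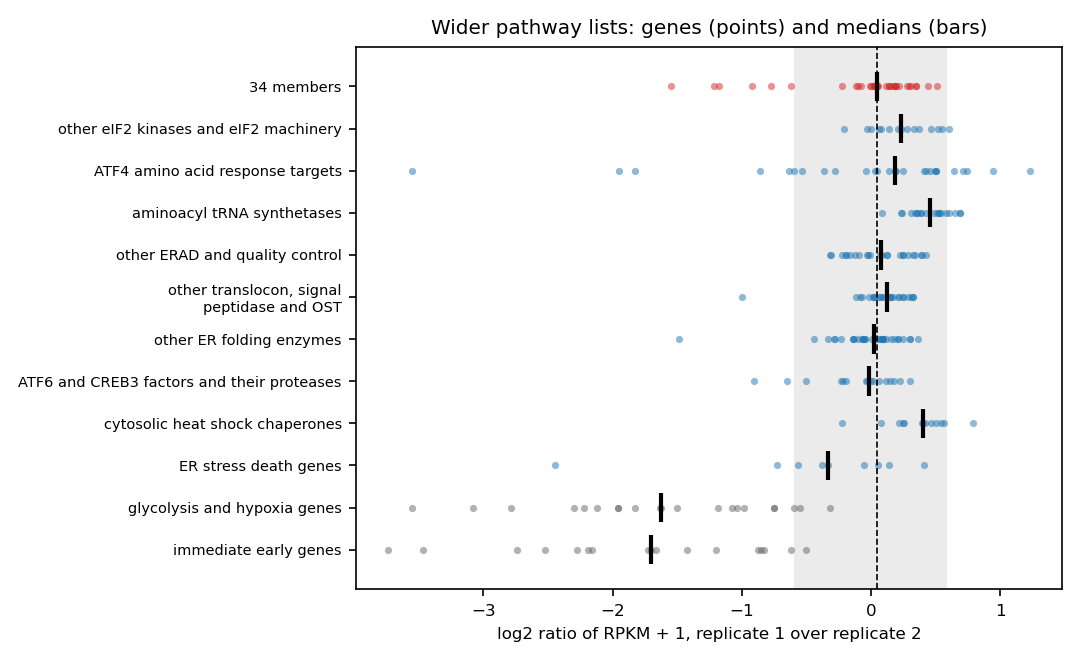
Log2 ratio of RPKM + 1, replicate 1 over replicate 2 (x axis), for genes whose mean reached 1 RPKM (points) and the median (bars) of the 34 genes in red, 9 wider pathway lists in blue and 2 lists chosen after seeing the data in grey, with the 1.5-fold band in light grey and the median of all genes tested as a dashed line. Synthetase genes lie right of 0 without exception, ER lists are centred near the dashed line, and the 2 grey lists lie left of 0.

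Chaperones of the cytosol and mitochondria leaned to replicate 1, unlike the ER degradation and folding lists by their medians. Of 16 listed genes 13 were detected, and 12 of these were higher in replicate 1, with a median log2 ratio of 0.40. The median was 0.20 over the 11 ER chaperones and 0.05 over all genes tested. Hspa8 stood at 1159 and 819 RPKM, Hsp90aa1 at 994 and 682, and Hsp90ab1 at 848 and 709. Hspd1, the mitochondrial chaperonin, had the highest ratio at 0.79, and Dnajb1, a heat shock J protein, the lowest at -0.23. The inducible Hspa1a and Hspa1b were below detection, Hspa1b at 0.382 and 0.447 RPKM, and Hspb1 was listed at 0. Hspa1a and Hspa1b are near-identical copies, and counting may split or drop their reads. Of the 10 genes linked to death under ER stress 9 were detected, with a median ratio of -0.33. Txnip stood at 185 and 1017 RPKM and Mcl1 at 159.9 and 265, both lower in replicate 1 by more than 1.5-fold. These 2 genes are 22.2% of the 9, against 11.3% of all genes tested. Bak1 stood at 83.96 and 80.6 RPKM, and Bax had the highest ratio at 0.41. Casp12, an ER-linked caspase, was below detection at 0.346 and 0.467 RPKM.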

How the data were processed

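RNA-seq of 2 libraries was analysed. The authors deposited RPKM values, 1 column per library, matched to the samples by column name and title. The submitters' processing notes name Trimmomatic 0.32, TopHat2, HTSeq, edgeR and the build mm9. For settings, annotation, strand use and gene lengths the sources used here give no statement, so overlapping antisense genes cannot be told apart and levels depend on the lengths used. Rows named as dates (27) were left out. Ratios are differences of log2(RPKM + 1), replicate 1 minus replicate 2, over genes whose mean reached 1 RPKM, and understate those of low genes. A gene was detected at 1 RPKM or more in both libraries. A difference of median levels was called beyond the spread with the same sign in both libraries and a mean over 2 SD. No test was run, since with 2 libraries the smallest p of an exact permutation test by sign flips is 0.5.

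The effective sizes rest on a ratio of 0.962 shared by 474 genes with equal read numbers and on the lengths of 74 of 1867 genes with 1 GENCODE vM21 transcript. Intervals are exact 95% binomial (Clopper-Pearson) from read numbers up to 10000, which were recovered for 95.9% of genes tested. Since those numbers are in lowest terms, an interval is too wide where the true numbers are multiples of them. Recovery was tested on simulated data. Alternatives covered the pseudocount, filters, scaling, means, folds and leaving out a library. The genes and lists were chosen with earlier results of these data known. All 34 genes are described, and of each wider list the 3 highest, the largest ratio each way and genes behind small counts; Asns, the eIF2 kinases, Casp12, P4ha1, Pgk1, Egr1, Fos, Zfp57, Derl3 and Hspa1b were named after their values were seen. Python 3.11.15, numpy 2.4.6, pandas 2.3.3 and scipy 1.17.1 were used.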

Additional observations from a re-analysis of the deposited data

How the results depend on the processing

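The median level of the 34 genes, 6.15 on the log2(RPKM + 1) scale, was 5.92 with a mean over genes and 6.84 with each library rescaled to a sum of 1000000, and 6.12 and 6.17 without replicate 1 and without replicate 2. With means in place of medians, oxidoreductases minus chaperones was 0.51, and the differences of sensors and of effectors from the transcription factors were both -2.57. Without either replicate the level differences ranged from 0.70 to 1.33 for oxidoreductases, from -1.77 to -1.46 for degradation genes, from -0.43 to -0.22 for the translocon, from -3.35 to -2.74 for sensors and from -3.63 to -3.15 for effectors, and with 2 libraries such values lie within 1 SD of the mean by construction. At 2-fold 3 genes were lower in replicate 1, Atf3, Ppp1r15a and Ero1l, against 5.30% of all genes tested. By recovered read numbers, held for 22 of the 34 genes, 3 had the whole interval past 1.5-fold, Atf3, Ppp1r15a and Trib3. No share over all genes is given for this rule. P4hb and Ero1l had no recovered read numbers, and the interval of Ern1 crossed 1.5-fold. The Ern1 interval is too wide if its true read numbers are multiples of those recovered. At 1.3-fold, a setting chosen after seeing the data, 2 genes were higher in replicate 1, against 14.8% of all genes tested, and 6 were lower (17.6%), against 17.5%, so the share of lower genes above that of all genes was seen at 1.5-fold and not at 1.3-fold. The median ratio of the 34 genes was -0.07 as a mean, that of the transcription factors -0.02 when centred on all genes and -0.33 as a mean, and that of degradation genes 0.04 as a mean. Among the wider lists the ATF4 targets had 0.05 with no filter and -0.10 as a mean, the other folding enzymes -0.02 when centred and -0.04 as a mean, and the ATF6 and CREB3 list 0.01 at a minimum of 5 RPKM. Ratios between libraries could not be given without a replicate. No paired analysis was possible because the series has 1 group.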
